A study of Mus musculus with 12 samples.

Results

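Mouse epiblast cells that had been returned to an ES-like state and kept for 4 passages (rEpiES passage 4) were compared with embryonic stem (ES) cells, using the 3 arrays labelled with each name, which are 6 of the 12 arrays of the series. Per the labels, epiblast was dissected from E5.5-E7.5 post-implantation embryos of 129/sv or ROSA 129/Sv mothers crossed to males carrying the Oct4-△PE-EGFP transgene, a green fluorescent reporter for Oct4. The cells were grown with 20% serum and 1000 units per ml of LIF on inactivated embryonic fibroblast feeders. Colonies with GFP-positive cells appeared after 14 to 35 days and were picked and passaged as rEpiES. The feeders are a second cell population that the extracted RNA could hold. The ES label carries the same sentence on the embryos and the reporter, and gives neither the line nor the culture medium of the ES cells. Whether the 3 arrays per group stand for separate cultures is not stated either, so the p-values below measure only how far these arrays spread, which may be technical. The 2 other groups, rEpiES at passage 24 and cultured epiblast (cEpi), 3 arrays each, are used below only as reference values.

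ES cells correspond to the naive epiblast of the blastocyst, while the epiblast after implantation is primed: it keeps the core factors Oct4 (Pou5f1) and Sox2, loses naive factors such as the Kruppel-like factors Klf2 and Klf4, Zfp42 and Dppa3, gains Fgf5 and Otx2, and methylates its DNA through Dnmt3a and Dnmt3b. In serum, LIF holds mouse ES cells naive through the JAK-STAT3 pathway, while FGF-ERK signalling pushes them towards differentiation. Serum-grown ES cultures are a mixture, in which some cells transiently carry transcripts of the primed epiblast or of the primitive streak. In bulk RNA, fewer cells of a type and less RNA per cell cannot be told apart.

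Levels are the authors' quantile-normalised log2 signals, on which 1 unit is 2-fold, and levels of different probes cannot be compared. A probe was detected where its deposited signal-to-noise score was 3 or more, and tested where it was detected on all 3 arrays of either group. A total of 12822 of 33012 probes were tested, of which 7925 carried 1 gene symbol and covered 7643 genes. A probe was called with limma at a Benjamini-Hochberg adjusted p under 0.05.

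The ES arrays stood apart before any gene was considered. They detected 12061, 12816 and 13827 probes, against 14329, 15034 and 14907 at passage 4, so the groups did not overlap (exact permutation test, two-sided p = 0.1, the smallest that 3 against 3 arrays allow). The median SD between arrays over the tested probes was 0.20 in ES and 0.09 at passage 4, so the ES arrays carry most of the spread behind the errors below. The passage 4 and cEpi files also share one layout, and the ES and passage 24 files another, so file layout and group cannot be told apart. As a guard, a probe is described below as parting by layout where the means of both groups of one layout lay over 1 log2 unit above those of both others. This held for 157 tested probes in favour of passage 4 and cEpi and for 101 in favour of ES and passage 24.

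Across the 9595 probes detected on all 12 arrays, the early reprogrammed cells lay well outside the spread of the ES arrays. The median absolute log2 difference between a passage 4 array and an ES array was 0.438 (range 0.404 to 0.454 over 9 pairs), while pairs of ES arrays differed by 0.199 (0.123 to 0.211) and pairs of passage 4 arrays by 0.084 (0.073 to 0.085). The nearest other group was passage 24, at 0.285 (0.281 to 0.291). The distance from passage 4 to cEpi was 0.452 (0.444 to 0.463), a range that overlaps the range of its distance to ES.

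**Figure D1:**
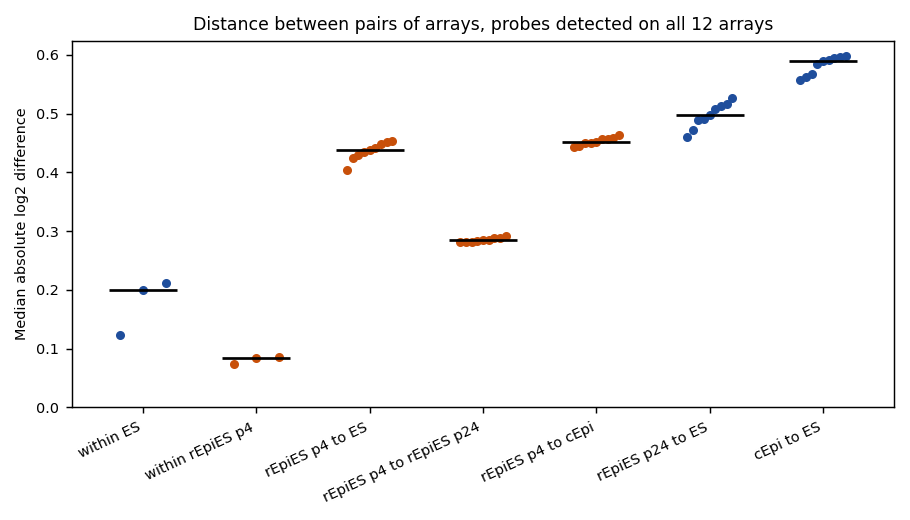
Median absolute log2 difference for each pair of arrays over the 9595 probes detected on all 12 arrays, grouped by the groups of the pair; each point is a pair and each bar the median. Pairs of passage 4 and ES arrays (median 0.438) lie above pairs within ES (0.199), and pairs of the 2 passages lie lower, at 0.285.

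Of the 12822 probes tested, 6805 (53.1%) were called, 3493 (27.2%) higher and 3312 (25.8%) lower at passage 4 than in ES. At 2-fold or more the counts were 1666 higher (13.0%) and 888 lower (6.93%). Per gene, with the brightest probe standing for it, 4100 (53.6%) were called, 2284 (29.9%) higher and 1816 (23.8%) lower, with a median difference of 0.10, and these shares are the background of the gene lists below. The balance of directions rests on the authors' quantile normalisation: 51.3% of the calls were higher, but 83.3% after median scaling of the deposited intensities, which moved the median of all probes by 0.36, and 80.6% without scaling, which moved it by 0.29. The groups did not overlap for 8402 probes (65.5%), of which 4377 (34.1%) were higher and 4025 (31.4%) lower at passage 4. Because of that shift, the counts of the lists are given with those after median scaling. Over all 12822 probes, median scaling gave 4604 called higher and 924 lower, with a median difference of 0.41. The list values after median scaling are to be read against these. The detection filter itself favours a call for a gene that passed it only through the group in which it was high. For 636 tested probes no ES array passed the detection score, and 486 of them were called higher. Among the 9988 probes detected on all 6 arrays, the 2-fold calls were near balance, with 750 higher and 698 lower.

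For many of the 2-fold calls ES was the group that stood apart. In 1096 of the 1666 probes called higher, all 3 ES arrays lay below all 9 other arrays, cEpi and passage 24 included. In 607 of the 888 called lower, all 3 ES arrays lay above all 9 others. Over all 12822 tested probes the counts were 2000 and 2028, and the calls themselves already set ES apart from passage 4. Among genes with 2 or more tested probes (264), 58 had every probe called in the same direction, 42 had probes called in opposite directions, 114 had some called in 1 direction and 50 had none called.

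**Figure D2:**
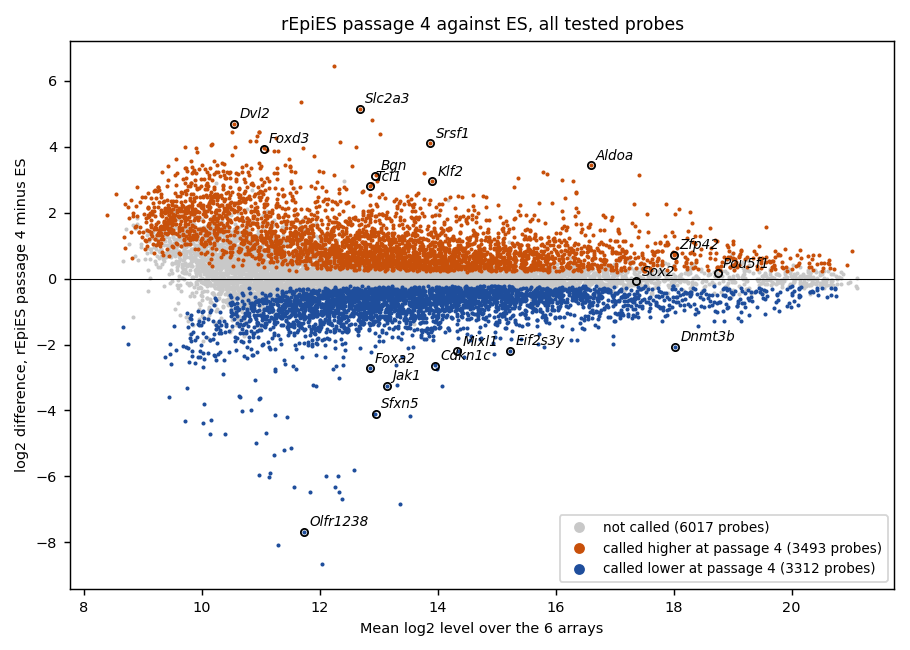
Log2 difference, rEpiES passage 4 minus ES, against the mean log2 level over the 6 arrays for the 12822 tested probes; orange points were called higher (3493), blue points lower (3312) and grey points were not called. Klf2, Aldoa and Srsf1 lie at 2.96 to 4.11, Dnmt3b, Mixl1 and Foxa2 at -2.06 to -2.71, and Pou5f1 and Sox2 near 0.

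The core factors Oct4 and Sox2 were not called different at passage 4. All 14 of the chosen ES markers with a named probe were detected on every ES and every passage 4 array, and their summed level was 21.15 to 21.23 in ES and 21.61 to 21.66 at passage 4, against 18.81 to 18.86 in cEpi. Such a sum is weighted towards the brightest probes of the list. Pou5f1, which encodes Oct4, measured 18.41, 18.57 and 19.02 on the ES arrays and 18.85, 18.80 and 18.82 at passage 4. The difference of 0.16 ± 0.17 (SE) was not called (adjusted p = 0.466), the passage 4 arrays lying within the ES range, but it was 0.33 and called without ES replicate 3 (adjusted p = 0.0195). Sox2, its partner on DNA, measured 17.37, 17.44 and 17.41 in ES and 17.30, 17.32 and 17.37 at passage 4, a difference of -0.08 ± 0.07 (adjusted p = 0.389). In cEpi the same probes averaged 17.65 ± 0.07 (SD, n = 3) and 15.76 ± 0.14.

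Of 14 tested core pluripotency genes 3 were higher, 5 lower and 6 not called, with a median difference of -0.01, or 0.28 after median scaling, when 4 were higher and 1 lower. Nanog, Esrrb and Lefty1 carry no named probe in the annotation used here and are not analysed. Dppa4, a nuclear SAP-domain protein of pluripotent cells, measured 14.26, 14.39 and 14.72 in ES and 15.89, 15.80 and 15.77 at passage 4 (1.36 ± 0.13, adjusted p = 0.000811). Dppa5a, an RNA-binding protein of early embryos and ES cells, rose from 19.93 ± 0.15 to 20.62 ± 0.03 (0.69 ± 0.10). The third gene that rose was Foxd3, a forkhead repressor needed to maintain pluripotent cells. It was detected on none of the ES arrays (8.53, 10.17 and 8.52) and on all at passage 4 (13.05, 13.10 and 12.94), about 15.5-fold higher. It also stood at 12.49 ± 0.21 in cEpi. All 3 ES arrays lay below all 9 others.

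The 5 that fell were led by Tdgf1. Tdgf1 (Cripto), the co-receptor for Nodal, measured 19.71, 19.74 and 20.07 in ES and 18.66, 18.81 and 18.73 at passage 4 (-1.11 ± 0.12, adjusted p = 0.00116). Rif1, a replication timing factor, fell by 0.55, the zinc-finger factor Sall4 by 0.53, Dppa2, the partner of Dppa4, by 0.37 and the Polycomb cofactor Jarid2 by 0.36.

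Naive pluripotency genes split into those above and those below the ES level. Of 15 tested, 6 were higher, 3 lower and 6 not called (median 0.24; 7 higher and 0 lower after median scaling). The largest rise was in Klf2, a Kruppel-like factor that supports the naive state: its probe measured 12.48, 12.45 and 12.36 in ES and 15.33, 15.53 and 15.29 at passage 4, which is 2.96 ± 0.09 or 7.76-fold (adjusted p = 7.06e-05). A second Klf2 probe, detected on 1 of the 3 ES arrays, also rose. Klf2 stayed at 14.92 ± 0.11 at passage 24, while cEpi, at 12.02 ± 0.04, lay close to ES. Tcl1, a co-activator of the kinase AKT, measured 11.19, 11.42 and 11.76 in ES and 14.26, 14.32 and 14.20 at passage 4 (2.80 ± 0.16, adjusted p = 0.000215). It was detected on no cEpi array.

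The other naive genes moved less. Klf4, a classical reprogramming factor, measured 13.68, 13.82 and 13.87 in ES and 14.66, 14.56 and 14.55 at passage 4 (0.81 ± 0.09). By passage 24 its level was 13.82 ± 0.04, within the ES range. Tbx3, a T-box factor downstream of LIF, rose by 0.96 ± 0.11, the zinc-finger marker Zfp42 (Rex1) by 0.73 ± 0.14 and the homeobox factor Gbx2 by 0.63 ± 0.11. The Zfp42 call was lost when all 33012 probes were tested (adjusted p = 0.055).

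Nr5a2, the orphan nuclear receptor that can replace Oct4 in reprogramming, fell: it measured 14.47, 14.32 and 14.45 in ES and 13.53, 13.48 and 13.58 at passage 4 (-0.88 ± 0.08, adjusted p = 0.000644). Dppa3 (Stella), a maternal factor that protects DNA from demethylation in the zygote, measured 16.75, 16.84 and 16.28 in ES and 16.07, 15.99 and 16.00 at passage 4 (-0.61 ± 0.16, adjusted p = 0.024). Tfcp2l1, a LIF target of the naive network, fell by 0.59 ± 0.14. After median scaling the adjusted p was 0.0694 for Nr5a2 and 0.117 for Dppa3. The Dppa3 call was also lost when any 1 array other than ES replicate 3 was left out (adjusted p 0.0573 to 0.0809). In cEpi the Nr5a2 and Dppa3 probes averaged 8.93 ± 0.63 and 11.35 ± 0.15, far below both groups.

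**Figure D3:**
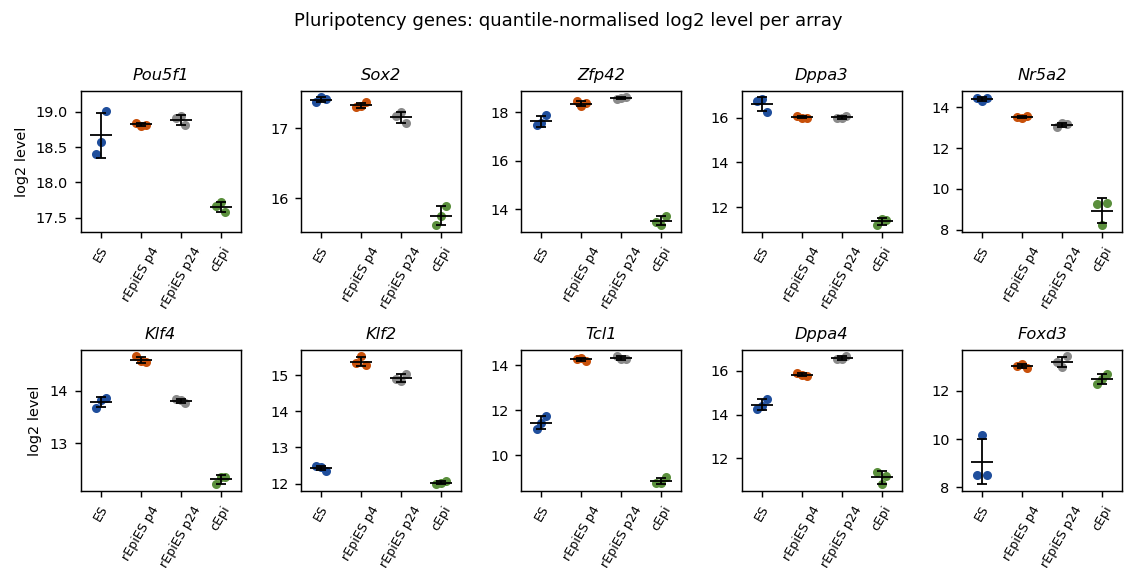
Log2 level on each array for 10 pluripotency genes in ES, rEpiES passage 4, rEpiES passage 24 and cEpi, each panel with its own scale; points are arrays, the long bar is the mean and the whiskers the SD of 3 arrays. Klf2, Tcl1, Dppa4 and Foxd3 at passage 4 lie above every ES array, Nr5a2 and Dppa3 lie below, and Pou5f1 lies within the ES range.

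Genes of the primed epiblast fell more often than they rose. Among 17 tested post-implantation genes 7 fell and 5 rose, the same counts as after median scaling (median -0.16, or 0.19 after median scaling). Fgf5, the growth factor that marks the primed epiblast, measured 15.87, 15.93 and 15.77 in ES and 14.50, 14.53 and 14.51 at passage 4, a fall of 2.54-fold (-1.34 ± 0.08, adjusted p = 0.000221). It averaged 17.40 ± 0.05 in cEpi and 12.46 ± 0.07 at passage 24, so passage 4 lay between ES and passage 24. Otx2, a homeobox factor that drives exit from the naive state, measured 17.02, 17.06 and 17.23 in ES and 15.87, 15.91 and 15.79 at passage 4 (-1.25 ± 0.09, adjusted p = 0.000375).

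The largest fall in this list was that of Dnmt3b, a de novo DNA methyltransferase. It measured 18.95, 18.93 and 19.28 in ES and 16.98, 16.99 and 17.01 at passage 4, which is -2.06 ± 0.12 or 4.17-fold (adjusted p = 0.000222), and a second probe fell by 1.86 ± 0.08. Passage 4 was the lowest of the 4 groups, below cEpi (17.66 ± 0.04) and passage 24 (18.04 ± 0.09). Sall2, a zinc-finger factor, fell by 1.64 ± 0.14 and the SoxC factor Sox4 by 1.02 ± 0.10. Pou3f1 (Oct6), a POU factor of the primed epiblast, fell by 1.65 ± 0.22, but its probe parted by layout, at 14.07 ± 0.04 at passage 24 and 12.51 ± 0.05 in cEpi.

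The 5 genes of the list that rose were led by Sox3, an X-linked SoxB1 factor closely related to Sox2. It measured 12.76, 12.92 and 12.36 in ES and 15.03, 15.22 and 14.93 at passage 4 (2.38 ± 0.17, adjusted p = 0.000356), and reached 15.78 ± 0.09 at passage 24, above cEpi (13.84 ± 0.07). Pim2, a serine/threonine kinase, rose by 1.88 ± 0.11 and Lefty2, a secreted inhibitor of Nodal, by 1.38 ± 0.10. Nodal itself measured 14.30, 14.53 and 14.48 in ES and 14.54, 14.60 and 14.45 at passage 4 and was not called (0.09 ± 0.09, adjusted p = 0.428).

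Genes of the primitive streak, the site where the epiblast turns into mesoderm and endoderm, were among the largest falls. Of 13 tested, 6 fell and 4 rose, also after median scaling. The median was -0.67, or -0.26 after median scaling, -0.07 with no detection filter, -0.42 without ES replicate 1 and -0.99 without ES replicate 3. Foxa2, a forkhead factor of the endoderm and node, measured 14.15, 14.33 and 14.12 in ES and 11.60, 11.41 and 11.48 at passage 4 (-2.71 ± 0.10 or 6.53-fold, adjusted p = 8.26e-05). Mixl1, a homeobox factor of the streak, measured 15.41, 15.51 and 15.40 in ES and 13.36, 13.10 and 13.23 at passage 4 (-2.21 ± 0.09, adjusted p = 0.000122). Lhx1, a LIM homeobox factor of the anterior mesendoderm, fell by 1.90 ± 0.17, Evx1 by 1.38 ± 0.12, Wnt3 by 1.26 ± 0.23 and Fgf8 by 0.97 ± 0.07.

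For Foxa2, Mixl1 and Lhx1 the ES arrays lay nearer to cEpi than the passage 4 arrays did. Foxa2 averaged 15.06 ± 0.05 in cEpi and was detected on 1 of 3 passage 24 arrays. Mixl1 averaged 14.76 ± 0.06 in cEpi, below its ES level, and 10.22 ± 0.32 at passage 24. Lhx1 averaged 16.28 ± 0.02 in cEpi and was detected on no passage 24 array. The passage 4 level lay between ES and passage 24 for all 3 genes.

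The 4 streak genes that rose were Lefty2, Cer1, Hhex and Eomes, of which 1 was detected on no ES array. Cer1, a secreted inhibitor of Nodal, BMP and WNT, measured 10.89, 10.06 and 10.85 in ES, where 1 array detected it, and 12.09, 12.03 and 12.11 at passage 4 (1.48 ± 0.23), and its probe parted by layout, with cEpi at 17.19 ± 0.07. Eomes, a T-box factor, rose by 0.52 ± 0.10. Among 9 endoderm genes 4 rose and 1 fell, also after median scaling. The rises were led by the basement membrane collagens Col4a1 (0.87 ± 0.14) and Col4a2 (0.73 ± 0.14), while Gata6, a zinc-finger factor that specifies primitive endoderm, fell by 1.14 ± 0.21. The summed level of the 8 chosen endoderm markers was 13.30 to 13.57 in ES and 12.94 to 13.20 at passage 4, with 3 of the 8 detected on no ES array, 3 on no passage 4 array, and Foxa1 on neither.

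**Figure D4:**
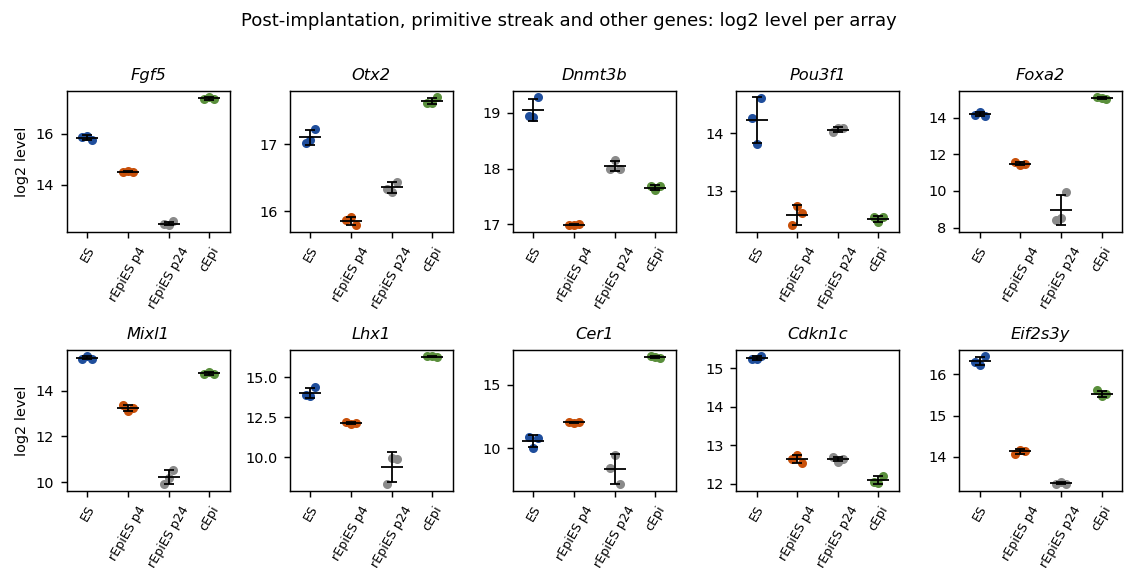
Log2 level on each array for genes of the primed epiblast (Fgf5, Otx2, Dnmt3b, Pou3f1), the primitive streak (Foxa2, Mixl1, Lhx1, Cer1), the imprinted Cdkn1c and the Y-linked Eif2s3y, each panel with its own scale; points are arrays, the long bar is the mean and the whiskers the SD of 3 arrays. All but Cer1 lie lower at passage 4 than on every ES array, and Dnmt3b is lowest at passage 4.

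The DNA methylation machinery did not move one way. Of 13 tested genes for DNA methylation and histone modification 4 rose and 5 fell (median -0.01; 5 and 2 after median scaling, median 0.25). Dnmt3b fell, as given above, and Dnmt3l, the catalytically inactive cofactor of the de novo enzymes, measured 17.21, 17.25 and 17.21 in ES and 16.75, 16.83 and 16.79 at passage 4 (-0.44 ± 0.07), a call lost after median scaling (adjusted p = 0.459). Uhrf1, which recruits the maintenance enzyme to replicated DNA, measured 13.00, 13.13 and 13.14 in ES and 14.22, 14.29 and 14.27 at passage 4 (1.17 ± 0.08, adjusted p = 0.000307). Dnmt1, the maintenance enzyme, rose by 2.16 ± 0.23, though only 2 of 3 ES arrays detected it.

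Polycomb members also parted. Suz12, a core subunit of the Polycomb repressive complex that methylates histone H3, rose by 1.33 ± 0.11, while Ezh2, the catalytic subunit of the same complex, fell by 1.17 ± 0.07. Eed, the third core subunit, differed by -0.01 ± 0.08 and was not called. The methyltransferase Ehmt2 (G9a) fell by 0.50 ± 0.09 and the deacetylase Hdac1 rose by 0.87 ± 0.08.

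Imprinted genes, which are read from a single parental copy, gave 4 rises and 3 falls among 15 tested (median 0.23; 7 and 2 after median scaling). Cdkn1c, a cell cycle inhibitor expressed from the maternal copy, measured 15.24, 15.26 and 15.32 in ES and 12.63, 12.74 and 12.53 at passage 4 (-2.64 ± 0.08 or 6.21-fold, adjusted p = 7.06e-05), and it was as low at passage 24 (12.64 ± 0.06) and lower in cEpi (12.08 ± 0.11). Peg10, a paternally expressed retrotransposon-derived gene, fell by 1.81 ± 0.16, while its second probe, detected on 1 ES array, was not called (1.20 ± 0.60). Impact, a paternally expressed regulator of translation, measured 12.57, 12.31 and 12.26 in ES and 14.89, 14.87 and 14.95 at passage 4 (2.52 ± 0.10, adjusted p = 0.000118). Sgce, the imprinted neighbour of Peg10, rose by 1.83 ± 0.14, by a probe that parted by layout.

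Both tested Y-linked genes were lower at passage 4. Eif2s3y, a translation initiation subunit, measured 16.31, 16.23 and 16.44 in ES and 14.07, 14.18 and 14.15 at passage 4 (-2.19 ± 0.09, adjusted p = 0.000107), and Uty was detected on all 3 ES arrays and no passage 4 array. Uty was about 5.07-fold lower, and its call was lost without passage 4 replicate 1 or 2 (adjusted p = 0.0589 and 0.057). The X-linked counterpart of Eif2s3y, Eif2s3x, rose by 1.15 ± 0.08. The other chromosomes showed no such shift: their median difference ran from 0.02 to 0.21, with 0.10 over 264 genes on X. In the sex chromosome list 6 of 8 tested genes fell, both Y-linked genes included, and 2 rose, Eif2s3x and Pgk1. The list median was -0.65, or -0.32 after median scaling.

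Promoter windows are shown for Klf2, the naive gene with the largest rise, and Dnmt3b, the primed gene with the largest fall. They are RefSeq windows from 250 bases before to 50 after the transcription start on GRCm38.p6, plus strand, with CG dinucleotides, the sites of DNA methylation, in capitals: Klf2 at chr8:72318812-72319111 (69.3% G or C, 32 CG) and Dnmt3b at chr2:153649199-153649498 (76.0% G or C, 30 CG).
Klf2: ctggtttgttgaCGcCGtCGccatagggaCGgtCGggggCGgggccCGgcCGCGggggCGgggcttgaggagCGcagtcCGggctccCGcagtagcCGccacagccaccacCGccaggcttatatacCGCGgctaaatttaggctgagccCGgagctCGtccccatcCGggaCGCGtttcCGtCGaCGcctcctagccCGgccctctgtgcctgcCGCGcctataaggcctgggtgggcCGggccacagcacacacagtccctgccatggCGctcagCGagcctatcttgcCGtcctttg
Dnmt3b: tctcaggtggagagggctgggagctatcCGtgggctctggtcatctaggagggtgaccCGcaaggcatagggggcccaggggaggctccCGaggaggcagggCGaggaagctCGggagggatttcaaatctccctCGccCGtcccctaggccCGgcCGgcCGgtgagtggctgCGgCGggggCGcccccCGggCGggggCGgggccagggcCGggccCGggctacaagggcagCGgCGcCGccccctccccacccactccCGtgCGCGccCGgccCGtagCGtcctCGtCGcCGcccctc
Both windows are dense in CG against a median of 7 per window over 27025 mouse promoters. That density is common among tested genes, whose median was 21 over 6286 matched promoters, with 20 for genes called 2-fold higher (902) and 20.5 for those called 2-fold lower (316). Methylation itself was not measured.

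Motif matches in the promoters are given as a description, and differences between their shares were not tested. On both strands, the E-box CACGTG occurred in 10.31% of the promoters called 2-fold higher, 10.76% of those called 2-fold lower, 10.71% of all tested and 7.24% of all mouse promoters. TTCCNGGAA, the STAT motif, occurred in 0.89%, 1.27%, 1.22% and 1.15%, TGACGTCA, the cyclic AMP element, in 2.33%, 2.85%, 3.47% and 1.88%, and CCACACCC, a Kruppel-like factor motif, in 4.88%, 3.8%, 3.66% and 3.57%. None of the 4 motifs, none of which contains another, was found in the Klf2 or Dnmt3b window.

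Signalling pathways of the ES state moved in part. Of 12 LIF-STAT3 genes 5 rose and 3 fell (median 0.26; 7 and 1 after median scaling). Stat3, the transcription factor that carries the LIF signal, measured 12.15, 11.61 and 12.40 in ES and 13.49, 13.42 and 13.45 at passage 4 (1.40 ± 0.21, adjusted p = 0.00301). Its feedback inhibitor Socs3 measured 16.63, 16.79 and 16.44 in ES and 16.95, 16.92 and 16.92 at passage 4 and just missed the call (0.31 ± 0.11, adjusted p = 0.0518), though it was called in the fit of all 12 arrays (adjusted p = 0.0129). The STAT3-regulated kinases Pim2 and Pim3 rose by 1.88 and 1.18, and Pim1 was not called (-0.03 ± 0.09). Jak1, the kinase upstream of STAT3, fell by 3.25 ± 0.14, by a probe that parted by layout (passage 24 at 14.50 ± 0.03, cEpi at 11.32 ± 0.19).

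FGF-ERK genes gave 7 falls and 3 rises among 16 tested (median -0.21). After median scaling there were 4 falls and 6 rises, with a median of 0.16 against 0.41 over all probes. The falls included the ligands Fgf5 and Fgf8, the immediate target Egr1 (-1.10 ± 0.10) and the feedback inhibitor Spry2 (-0.93 ± 0.17). The rises were Etv5, an ETS factor that ERK induces, Spred1, an inhibitor of the pathway, and the receptor Fgfr1. Etv5 measured 14.07, 14.16 and 14.10 in ES and 15.96, 16.05 and 15.95 at passage 4 (1.87 ± 0.07, adjusted p = 0.000107). Its relative Etv4 fell by 0.49 ± 0.09.

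The WNT list was the signalling list with the lowest median, -0.50 over 18 tested genes, of which 9 fell and 2 rose. After median scaling 5 fell and 4 rose, with a median of -0.09 against 0.41 over all probes. Lef1, a DNA-binding partner of beta-catenin, fell by 1.63 ± 0.20 by a probe that parted by layout. Sfrp2, a secreted WNT modulator, measured 14.78, 14.63 and 14.94 in ES and 13.33, 13.16 and 13.31 at passage 4 (-1.51 ± 0.11, adjusted p = 0.000367). Lgr5, the R-spondin receptor, fell by 1.32 ± 0.25, cyclin D1 (Ccnd1) by 0.84 ± 0.09, the kinase Gsk3b by 0.86 ± 0.07 and the repressor Tcf7l1 by 0.47 ± 0.15. Beta-catenin itself (Ctnnb1) rose, from 13.65, 13.67 and 13.39 in ES to 15.37, 15.45 and 15.33 at passage 4 (1.82 ± 0.10, adjusted p = 0.000226).

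In the BMP list 4 rose and 3 fell among 11 tested (4 and 1 after median scaling). The receptor Bmpr1a rose by 2.75 ± 0.16, with 2 of 3 ES arrays detecting it, the ligand Bmp4 by 0.74 ± 0.14 and the target Id1, which works with LIF against neural differentiation, by 0.73 ± 0.16. The remaining rise, Id4, was detected on no ES array and passed the filter only through passage 4, which favours its call. That call was lost with a mean-dependent prior (adjusted p = 0.0848) and without passage 4 replicate 1 (adjusted p = 0.0508). Msx1, a homeobox target of BMP, fell by 2.40 ± 0.57, a call lost without passage 4 replicate 1 (adjusted p = 0.0534). In the Nodal-Activin list 3 of 10 rose and 2 fell (3 and 1 after median scaling), with Tdgf1 and the receptor Acvr2b (-0.79 ± 0.22) as the falls. The Acvr2b call was lost without any 1 of the passage 4 arrays (adjusted p 0.0738 to 0.0973). It was also lost after median scaling (adjusted p = 0.26) and with no detection filter (adjusted p = 0.113).

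Glucose uptake and glycolysis genes held some of the largest rises. Of 21 tested, 10 rose and 6 fell (median 0.27), or 10 and 1 after median scaling. Slc2a3, the high-affinity glucose transporter of the early embryo, measured 10.22, 9.28 and 10.81 in ES, where 2 arrays detected it, and 15.25, 15.30 and 15.22 at passage 4 (5.16 ± 0.38, adjusted p = 0.00038). Slc2a1, the ubiquitous transporter, measured 11.84, 12.01 and 12.64 in ES, again detected on 2 arrays, and 15.36, 15.51 and 15.29 at passage 4 (3.22 ± 0.22). The aldolase Aldoa, detected on all arrays, measured 14.74, 14.83 and 15.03 in ES and 18.41, 18.30 and 18.25 at passage 4 (3.45 ± 0.11, adjusted p = 7.06e-05).

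Yet other glycolysis genes fell or were not called. The lactate exporter Slc16a3 fell by 1.5 ± 0.13, the lactate dehydrogenase Ldha by 0.39 ± 0.07 and the kinase Pdk1, which holds pyruvate out of the mitochondrion, by 0.42 ± 0.09. Gapdh differed by 0.20 ± 0.12 and was not called. For Slc2a3, Slc2a1 and Aldoa the ES arrays were below all other groups: cEpi averaged 15.72 ± 0.08, 16.09 ± 0.07 and 17.75 ± 0.07. In the mitochondrial list 8 of 18 rose and 5 fell (7 and 0 after median scaling), from the cytochrome oxidase subunit Cox5b (1.94 ± 0.13) down to cytochrome c, Cycs (-0.63 ± 0.10).

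Cholesterol synthesis genes gave 7 falls and 1 rise among 13 tested (median -0.53). After median scaling there were 2 falls and 1 rise, with a median of -0.16 against 0.41 over all probes. Idi1, the isoprenoid isomerase, measured 17.22, 17.18 and 17.15 in ES and 16.23, 16.18 and 16.19 at passage 4 (-0.98 ± 0.07, adjusted p = 0.000341), while its second probe was not called (-0.10 ± 0.08). The sterol oxidase Msmo1 fell by 0.77 ± 0.09, the sterol sensor Insig1 by 0.70 ± 0.09 and squalene epoxidase, Sqle, by 0.55 ± 0.07. In the oxidative stress list 8 of 18 rose and 7 fell (8 and 1 after median scaling). Of the rises, Srxn1 and Gstm1 were detected on no ES array and passed the filter only through passage 4, which favours their calls. Thioredoxin reductase Txnrd1 measured 13.47, 13.53 and 13.51 in ES and 16.00, 16.02 and 16.04 at passage 4 (2.52 ± 0.07, adjusted p = 7.06e-05), while Gclc and Gclm, the subunits of the ligase that makes glutathione's precursor, changed by -1.04 ± 0.12 and -0.64 ± 0.11. Among amino acid genes 8 of 20 rose and 3 fell (7 and 0 after median scaling), led by the tRNA synthetases Wars (1.73 ± 0.14) and Cars (1.62 ± 0.11) and by asparagine synthetase, Asns (1.49 ± 0.09), while the regulator Atf4 fell by 0.46 ± 0.07.

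Cell cycle genes were divided, with 11 rises and 8 falls among 26 tested (median 0.05; 8 and 2 after median scaling). Cyclin D3 (Ccnd3) measured 12.40, 12.30 and 12.46 in ES and 14.57, 14.75 and 14.60 at passage 4 (2.25 ± 0.09, adjusted p = 0.000107), whereas cyclin D1 fell and cyclin D2 (Ccnd2) was not called (0.07 ± 0.23). The replication helicase subunit Mcm2 rose by 1.47 ± 0.07 and Mcm4, another subunit, fell by 0.72 ± 0.10. The replication clamp Pcna fell by 1.02 ± 0.11. Of 19 ribosomal protein genes 4 rose, 2 fell and 13 were not called (median 0.05; 7 rises and 1 fall after median scaling).

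Rises were frequent in the cytoskeleton and matrix lists, in part on probes that parted by layout. In the actin list 14 of 22 rose and 2 fell (median 0.61; 13 and 1 after median scaling), and in the matrix list 12 of 19 rose and 2 fell (median 0.82; 13 and 0). Of these, 8 actin and 6 matrix probes parted by layout, and without them the counts were 6 rises and 2 falls among 14 (median 0.22) and 6 and 2 among 13 (median 0.24). Vinculin (Vcl), which links actin to adhesions, measured 11.72, 11.05 and 11.71 in ES and 14.42, 14.51 and 14.41 at passage 4 (2.96 ± 0.20), by such a probe, and it averaged 12.91 ± 0.11 at passage 24 and 13.96 ± 0.12 in cEpi. The other groups thus both lay above ES. Of the matrix rises, Timp3 was detected on no ES array and passed the filter only through passage 4. Among probes that did not part by layout, the annexin Anxa2 rose by 1.47 ± 0.15, the matrix protein Fbln1 by 1.39 ± 0.12, fibronectin (Fn1) by 0.80 ± 0.10 and the nuclear lamin Lmna by 1.00 ± 0.12, while the actin crosslinker Actn4 fell by 1.02 ± 0.08.

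Most fibroblast markers, which the feeders would bring, were not called. Of 22 tested 7 rose, 1 fell and 14 were not called (median 0.19; 8 and 0 after median scaling). Over all tested genes 29.9% were called higher and 23.8% lower. The summed level of the 16 chosen fibroblast markers with a probe was 18.02 to 18.64 in ES and 18.29 to 18.33 at passage 4, an overlapping range, against 20.60 to 20.63 in cEpi. The defining collagens Col1a1 (0.26 ± 0.14), Col1a2 (-0.52 ± 0.18) and Col3a1 (-0.17 ± 0.21) were not called and Dcn, a matrix proteoglycan of fibroblasts, fell by 1.08 ± 0.17. Its relative Bgn rose, from 11.58, 11.24 and 11.33 in ES to 14.48, 14.59 and 14.48 at passage 4 (3.13 ± 0.11, adjusted p = 8.65e-05), and stood at 16.42 ± 0.08 in cEpi. Thy1, a fibroblast surface protein, was detected on no ES array and was about 8.25-fold higher, by a probe that parted by layout. Postn rose by 1.13 ± 0.16, also by a probe that parted by layout. Prrx1 rose by 1.83 ± 0.59, with 1 ES array detecting it. The Prrx1 call was lost without any 1 passage 4 array (adjusted p 0.107 to 0.117).

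**Figure D5:**
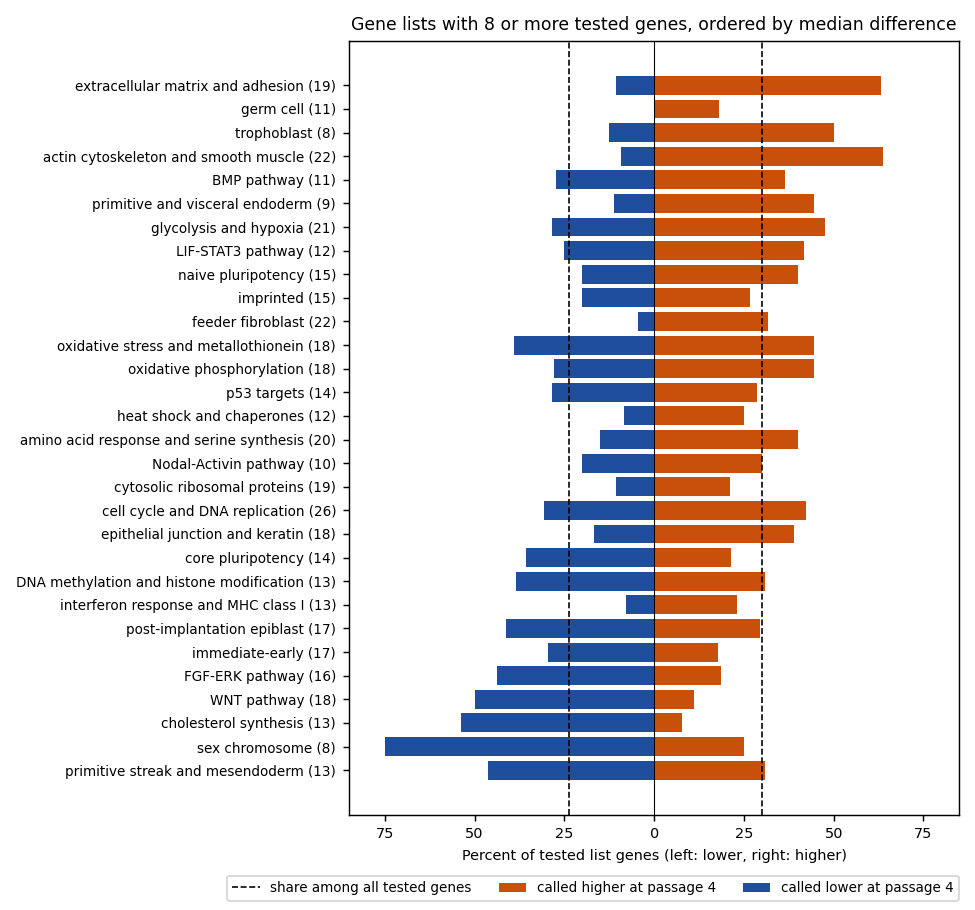
Percent of the tested genes of each list called higher (right) and lower (left) at passage 4, for lists with 8 or more tested genes (number in brackets), ordered by the list's median difference; dashed lines give the shares among all 7643 tested genes, 29.9% higher and 23.8% lower. The actin and matrix lists reach furthest to the right, with 8 of 22 and 6 of 19 probes parting by layout. The sex chromosome list reaches furthest to the left (6 of 8), the primitive streak list has the lowest median (-0.67), and the cholesterol and WNT lists lie mostly to the left. Median scaling leaves 2 of 13 cholesterol and 5 of 18 WNT genes called lower, against 924 of all 12822 probes.

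Epithelial genes, which distinguish compact ES colonies from mesenchyme, gave 7 rises and 3 falls among 18 tested (7 and 0 after median scaling). E-cadherin (Cdh1) measured 17.38, 17.46 and 17.59 in ES and 16.92, 16.97 and 16.99 at passage 4 (-0.52 ± 0.09, adjusted p = 0.00448), a call lost after median scaling (adjusted p = 0.331). Its cytoplasmic partner alpha-catenin (Ctnna1) measured 12.94, 13.01 and 12.93 in ES and 15.51, 15.33 and 15.51 at passage 4 (2.49 ± 0.08, adjusted p = 7.55e-05), and plakoglobin (Jup) rose by 1.54 ± 0.15. With the quantile-normalised values, the cadherin fell and these catenins rose. N-cadherin (Cdh2), a mesenchymal cadherin, fell by 0.90 ± 0.07 (adjusted p = 0.082 after median scaling), its second probe pointed the other way without being called (0.62 ± 0.25, adjusted p = 0.0869), and vimentin (Vim) was not called (0.21 ± 0.16, adjusted p = 0.302) except without ES replicate 3 (0.38, adjusted p = 0.0127).

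The keratins of simple epithelia rose: Krt8 by 0.82 ± 0.11, Krt18 by 1.00 ± 0.11 and Krt19, by a probe that parted by layout, by 2.04 ± 0.22. At passage 24 Krt8 averaged 14.04 ± 0.07, below both ES (16.59 ± 0.12) and passage 4 (17.41 ± 0.13). In the trophoblast list, which shares Krt8 and Krt18, 4 of 8 rose and 1 fell (5 and 0 after median scaling). Its largest rise was Tfap2c, an AP-2 factor of trophoblast and germ cells, which measured 12.76, 12.96 and 13.21 in ES and 14.95, 14.93 and 14.90 at passage 4 (1.95 ± 0.13, adjusted p = 0.000308). Cdx2 and Gata3, which define trophoblast, were not called (-0.07 ± 0.20 and -0.32 ± 0.32).

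Over all named genes, with or without a list, the largest rises on probes detected by all 6 arrays were those of Srsf1, Aldoa, Gja4, Bgn, Pabpc1, Klf2, Vcl, Kpna3, Tcl1, Cd44, Plin2 and Gm2a. Srsf1, a splicing factor, measured 12.48, 11.37 and 11.61 in ES and 15.97, 15.96 and 15.87 at passage 4 (4.11 ± 0.29, adjusted p = 0.000358). Pabpc1, the cytoplasmic poly(A)-binding protein, measured 14.74, 14.76 and 14.34 in ES and 17.57, 17.60 and 17.69 at passage 4 (3.00 ± 0.13). For 10 of these 12 genes all 3 ES arrays lay below all 9 other arrays, the exceptions being Klf2 and Tcl1, against 2000 of the 12822 tested probes; the genes were picked for their rise over ES.

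The largest falls on such probes were those of Sfxn5, Jak1, Tspan12, Amph, Foxa2, Cdkn1c, Olfr1311, Jph4, Cfap300, Wipi2, Ubqln2 and Mixl1. For 7 of the 12 all 3 ES arrays lay above all 9 others, against 2028 of the 12822 tested probes, and 4 parted by layout (Jak1, Amph, Olfr1311 and Wipi2). Sfxn5, a mitochondrial transporter of the sideroflexin family, measured 15.53, 15.46 and 14.01 in ES and 10.81, 10.83 and 11.04 at passage 4 (-4.10 ± 0.43, adjusted p = 0.000962). Tspan12, a tetraspanin that aids Norrin signalling through Frizzled, measured 13.49, 13.67 and 13.35 in ES and 10.46, 10.07 and 10.31 at passage 4 (-3.23 ± 0.14), below passage 24 (12.71 ± 0.04) and cEpi (12.83 ± 0.07). Cfap300, a ciliary protein, was likewise lowest at passage 4, at 10.15 ± 0.15 against 12.63 ± 0.22 in ES, 12.53 ± 0.11 at passage 24 and 11.75 ± 0.10 in cEpi.

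Some genes were detected on every array of one group and none of the other. The largest bounds upward were Dvl2, a WNT signal transducer (about 25.4-fold higher), Pramel39 (22.1), Zfp280b (22.0), Tfrc, the transferrin receptor (19.3), the acetyltransferase Kat7 (17.8), Erlin2 (16.6), Foxd3 (15.5) and Def8 (15.1). These bounds do not allow for the spread between arrays. For all 8 of them the 3 ES arrays also lay below every passage 24 and cEpi array. ES was lowest in this way for 2000 of the 12822 tested probes. The 8 genes were picked for being detected on no ES array, which favours that outcome. Tfrc, used by dividing cells to take up iron, was read at 8.79, 9.95 and 8.64 in ES and at 13.46, 13.32 and 13.41 at passage 4. Downward, the 3 largest bounds, Olfr1238, Colgalt2 and Taar5, were all on probes that parted by layout. The 5 that did not were Anpep (about 5.54-fold lower), the neurotrophin Bdnf (5.15), Uty (5.07), the protease inhibitor Slpi (5.03) and Phactr1 (4.28).

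Of 5 tested genes of the 2-cell embryo 4 were called higher (3 after median scaling). However, Tcstv3, Tcstv1 and Sp110 were detected on no ES array and passed the filter only through passage 4. The filter thus favoured their calls, and the count is no support for the list. The fourth, Eif1a, rose by 0.24 ± 0.08, a call lost after median scaling (adjusted p = 0.0592). Tcstv3, which is transcribed in 2-cell embryos and in rare ES cells, was detected on no ES array (8.35, 7.91 and 7.73) and on all at passage 4 (11.68, 11.83 and 12.01), about 14.3-fold higher. It stood at 12.61 ± 0.03 in cEpi. Tcstv1, a related gene, was about 5.96-fold higher. Near-identical copies of these genes exist, so their probes may read more than 1 of them. Of 11 germ cell genes 2 rose (5 after median scaling, 6 without ES replicate 3 and 1 without any one passage 4 array). They were Dazl (1.73 ± 0.46, a call lost without any 1 passage 4 array, adjusted p 0.0703 to 0.0775) and Hormad1 (1.90 ± 0.27). Dazl was detected on 2 ES arrays and Hormad1 on 1, so both passed the filter only through passage 4.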

How the data were processed

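RNA was measured on 12 Applied Biosystems 1-colour arrays of 33012 probes. Per the labels' protocols, total RNA was extracted with Trizol and copied into digoxigenin-labelled cRNA. Each deposited file holds a linear signal intensity, a signal-to-noise score, a quality code and, per the file headers, quantile-normalised values, which lie on a log2 scale. The sources used here name no scanner software or background correction. In the passage 4 and cEpi files the deposited score stands under the header of the flags, so columns were read by content. The log2 values were fitted with limma 3.58.1 (R 4.3.3; lmFit and eBayes, two-sided, 6 arrays, 4 residual and 1.68 prior degrees of freedom), with Benjamini-Hochberg adjustment over 12822 probes. A call is an adjusted p under 0.05. Differences carry the standard error, and levels the SD of 3 arrays. Where no array of one group detected a probe, the fold, called a bound, is taken against the higher of its own signal and the lowest detected signal, per array. It does not allow for the spread between arrays, so it is an estimate and not a lower limit. The fit was tested on simulated data that gave both groups the same spread for a probe. That cannot show how the fit behaves with the unequal spread of these arrays.

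Symbols came from the platform annotation: 14411 probes had 1, 247 several and 18354 none. Of those with 1, 14402 matched RefSeq (GRCm38.p6) by gene ID and 0 changed. The brightest probe stood for a gene. The 35 lists hold 714 genes, 570 with a named probe and 453 tested. Named were the 12 largest rises and 12 largest falls detected on all 6 arrays with groups apart, the 8 largest bounds each way, up to 4 called members a list with the largest difference, and a set of pluripotency and related genes. Other list members are named to fill out a pathway and were chosen after their values were seen. The members and lists were chosen with earlier results of these data known. The number of arrays limits the precision. Alternatives covered scaling, the detection filter, the arrays in the fit, the prior, array weights, quality codes, the replicate block, layout and leaving out each array.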

Additional observations from a re-analysis of the deposited data

How the results depend on the processing

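Scaling and the detection filter moved the counts most, and none of the calls among the 165 named genes reversed in the alternatives run, which were not followed gene by gene beyond them. Against 6805 probes called, there were 4349 without scaling of the log2 intensity and 3850 with no detection filter. The 3493 called higher became 2060 with no filter, and the 3312 called lower became 924 after median scaling, 842 without scaling and 1790 with no filter. At 2-fold or more, the 1666 higher became 2867 after median scaling, 2539 without scaling and 754 among probes detected on all 6 arrays, and the 888 lower became 381 after median scaling and 463 without scaling. The cause of these shifts was not tested, beyond the 9988 probes left by the last filter. Of all calls, 44.4% were higher among probes detected on all 6 arrays.

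Leaving out 1 array at a time gave 4830 to 7667 called, 2473 to 3999 higher, 2357 to 3668 lower, 1440 to 1903 higher and 834 to 1029 lower at 2-fold or more. The replicate numbers do not pair the arrays (correlations of -0.005, 0.046 and 0.042 for equal numbers), and with the number as a block 5753 probes were called. Without probes that part by layout 6596 were called. For the 165 named genes, 2430 values under alternatives kept direction and side of the threshold, 136 lost the call and 8 gained it. The spread of the ES arrays limits what could be called, and the number of arrays limits precision.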
